A study of Homo sapiens with 6 samples.

Results

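Non-homologous end joining is the repair route that rejoins the ends of a broken DNA double helix without a matching template, and it is the main route for breaks made by ionizing radiation in most phases of the cell cycle. The Ku heterodimer, made from XRCC6 and XRCC5, binds the broken ends and recruits the kinase encoded by PRKDC. The nuclease encoded by DCLRE1C trims the ends, and the ligase encoded by LIG4 seals them together with the scaffold proteins encoded by XRCC4 and NHEJ1. TP53BP1 and RIF1 encode proteins that shield ends from resection and so favour this route over homologous recombination, and PARP1 encodes a sensor of nicks and breaks that also feeds the alternative end joining route.

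The transcripts of these 10 genes, found by symbol among the 46427 genes of the deposited table, were followed in MDA-MB-231/RR cells. MDA-MB-231 is a human triple-negative breast cancer line, and RR marks its radioresistant derivative. RNA was sequenced from 3 samples co-treated with melatonin, the pineal hormone, and oTR (ortho-topolin riboside, an adenosine derivative of the cytokinin family of plant hormones), and from 3 control samples of the same cells. The sources used here give no doses, no exposure times and no account of what the controls received. Neither agent alone was analysed here, so their separate contributions cannot be told apart. No irradiated sample and no parental line were analysed here. The labels do not say whether the 3 samples of a group were separate cultures, so each p-value reflects only how far these samples scatter, a scatter that may be technical.

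The libraries held between 50569611 and 72204161 estimated counts in the co-treated group and between 56521572 and 72309015 in the control group. Among 16557 genes with enough counts to test, 2743 (16.6%) were called higher and 2835 (17.1%) lower in co-treated cells at an adjusted p of 0.05, with edgeR's quasi-likelihood test. All 5 markers chosen as high in this line were present, with a summed level of 3593 to 3938 TPM (a level per transcript length, scaled to the same total in each library) in co-treated libraries and 3186 to 3339 TPM in control libraries. Of the 7 chosen as low, ESR1, PGR, CDH1 and EPCAM were at 0 or under 1 TPM, but KRT8 stood at 603 to 724 TPM in co-treated libraries and 603 to 664 TPM in control libraries. ERBB2, at 33.3 to 37.4 TPM in co-treated libraries and 28.3 to 29.9 TPM in control libraries, and GATA3, at 3.01 to 3.43 TPM in co-treated libraries and 3.98 to 4.65 TPM in control libraries, also went against their place on that list. Of the leukocyte and fibroblast markers, PTPRC, COL1A2 and DCN were listed at 0 in all libraries, while the leukocyte marker CD68 had 30.5 to 37.9 TPM in co-treated libraries and 31.9 to 33.1 TPM in control libraries. The fibroblast markers COL1A1, at 6.79 to 7.30 TPM in co-treated libraries and 7.32 to 9.24 TPM in control libraries, and PDGFRB, at 2.58 to 2.71 TPM in co-treated libraries and 2.36 to 2.56 TPM in control libraries, were present too. The part of these markers in the results was not tested.

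All 10 end joining genes passed the filter on low counts. Of these, 4 were called lower in co-treated cells (XRCC6, XRCC5, PRKDC and PARP1), against 17.1% of all genes, 1 was called higher (NHEJ1), against 16.6% of all genes, and 5 were not called. In both directions together, 5 of the 10 were called, beside 33.7% of all genes tested. The groups did not overlap in CPM for the same 5 genes, 4 lower and 1 higher in co-treated cells, beside 24.1% and 23.3% of all genes tested. The 4 that fell are the 4 most abundant of the 10, and each encodes a protein that acts when a break is first recognized. Their changes were small, between a fall of 10.0% and a fall of 13.2%. The SE of their log2 fold changes was 0.04 to 0.05, whereas that of DCLRE1C, XRCC4 and LIG4 was 0.08 to 0.09. A fall of this size could be missed in those less abundant genes, so the calls do not show that early and late steps differed. Further genes of break signalling, read from a list of 16, did not all move this way. Of these, 2 were called higher (RAD50 and ATM) and 3 lower (NUDT16L1, TRIP13 and KAT5), beside 16.6% and 17.1% of all genes. The median log2 fold change of the 10 genes was -0.03, beside 0.0024 over all genes tested. In RNA from whole cultures, less RNA per cell and fewer cells that express a gene cannot be told apart.

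**Figure D1:**
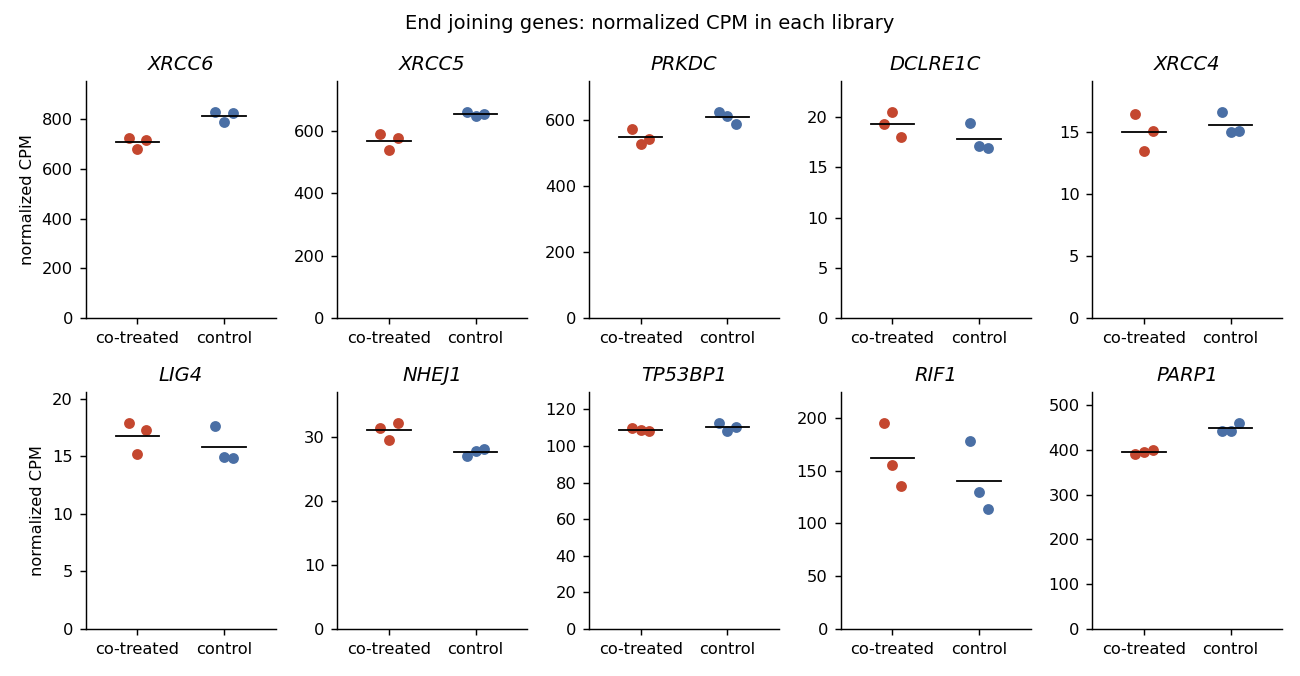
Normalized CPM (estimated counts scaled to a common library size, linear axis from 0) of the 10 end joining genes in each library; points are the 3 co-treated libraries on the left and the 3 control libraries on the right of each panel, and lines are group means. All co-treated points lie below all control points for XRCC6, XRCC5, PRKDC and PARP1, and above them for NHEJ1.

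The levels of the 10 genes per transcript length spanned 104-fold. XRCC6 was highest, at 774 ± 33.6 TPM in co-treated cells and 813 ± 21.9 TPM in control cells (SD, n = 3 each). XRCC5 followed at 389.9 ± 21.8 TPM in co-treated cells and 409.8 ± 9.53 TPM in control cells, so the messages of the 2 Ku subunits did not stand at equal levels. PARP1 came next, at 231 ± 1.88 TPM in co-treated cells and 239 ± 1.04 TPM in control cells. After it, PRKDC stood at 94.4 ± 5.29 TPM in co-treated cells and 95.8 ± 4.87 TPM in control cells. The ranges over all 6 libraries of these 4 genes did not overlap with those of their neighbours in the order. RIF1, TP53BP1 and XRCC4 came next, with means over the 6 libraries of 25.9, 23.6 and 20.5 TPM. LIG4, NHEJ1 and DCLRE1C closed the order at 8.83, 8.14 and 7.67 TPM. Within each of these 2 trios neighbouring genes overlapped in range and their order is not settled, whereas XRCC4, the lowest of the first trio, did not overlap with LIG4.

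**Figure D2:**
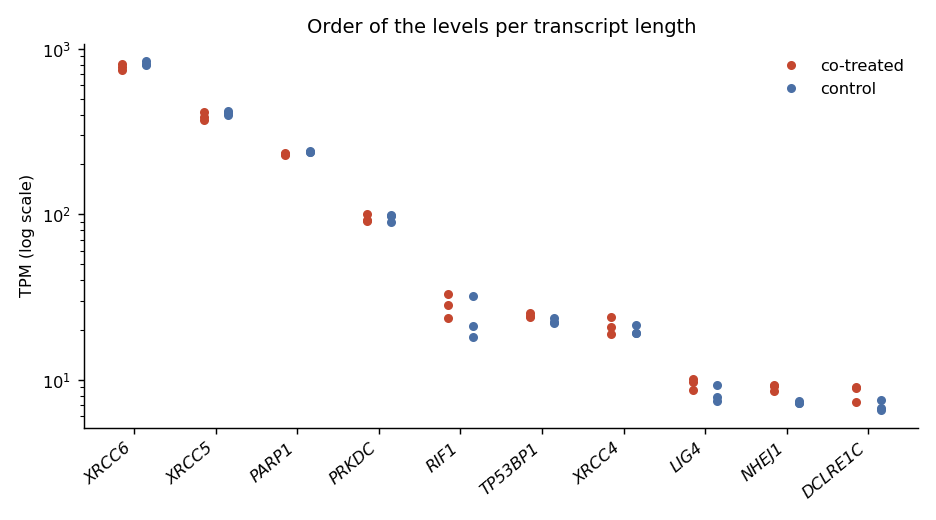
Level of each end joining gene in TPM (log axis), ordered by the mean over the 6 libraries; points are single libraries, co-treated left of control for each gene. XRCC6 stands 104 times above DCLRE1C, and a gap separates PRKDC from the 6 genes below it.

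XRCC6, which encodes the Ku70 subunit, lies at chr22:41621163-41664048 on the plus strand (GRCh38, the span of the gene's transcripts in the deposited table). It had 727, 681 and 717 normalized CPM in the 3 co-treated libraries, against 829.7, 789.6 and 825 CPM in the 3 control libraries. All 3 co-treated libraries lay below all 3 control libraries. The means were 708 ± 24.0 CPM in co-treated cells and 815 ± 21.9 CPM in control cells (SD, n = 3 each). In edgeR this was -0.20 ± 0.04 on the log2 scale (SE, adjusted p = 0.00432), a fall of 13.1% with a 95% interval of -18.6% to -7.22%. The 250 bases before its start site in RefSeq, at chr22:41621045-41621294 on the plus strand of GRCh38.p14, are shown because XRCC6 was called lower. Capitals mark GGGCGG, the GC box bound by the SP1 family, and CCAAT, the box bound by NF-Y, on either strand.
XRCC6: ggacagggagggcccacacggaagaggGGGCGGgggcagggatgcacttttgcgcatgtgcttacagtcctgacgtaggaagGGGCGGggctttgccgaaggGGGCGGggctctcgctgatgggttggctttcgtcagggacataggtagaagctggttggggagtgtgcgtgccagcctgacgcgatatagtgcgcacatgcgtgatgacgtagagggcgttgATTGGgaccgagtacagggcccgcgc
The window holds 3 GC boxes and 1 CCAAT box, which stands 26 bases before the start. These matches describe letters only, not binding.

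XRCC5, which encodes the Ku80 subunit, lies at chr2:216109348-216206293 on the plus strand. It had 589, 538 and 576 CPM in the co-treated libraries, against 661, 648 and 653 CPM in the control libraries. Again no co-treated library reached the lowest control library. The means were 568 ± 26.7 CPM in co-treated cells and 654 ± 6.54 CPM in control cells (SD, n = 3 each), and edgeR put the log2 difference at -0.20 ± 0.04 (SE, adjusted p = 0.00529). This was a fall of 13.2%, with a 95% interval of -18.9% to -7.03%.

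The subunits of Ku form an obligate pair, and the ratio of their messages within a library is not touched by the scaling between libraries. A trend of counts with transcript length could still touch it. XRCC6 over XRCC5 in TPM was 1.96, 2.02 and 1.98 in the co-treated libraries, against 2.00, 1.94 and 2.01 in the control libraries. The groups overlapped throughout. The mean log2 ratio was 0.99 ± 0.02 in co-treated cells and 0.99 ± 0.03 in control cells (SD, n = 3 each; exact two-sided permutation test, p = 0.9), so a change in the balance of the subunits was not detectable. With 3 libraries a side this test cannot give a p below 0.1.

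PARP1, whose product senses nicks and breaks and builds poly(ADP-ribose) chains there, lies at chr1:226360691-226408093 on the minus strand. It had 392, 396 and 399.8 CPM in the co-treated libraries, against 442, 441 and 461 CPM in the control libraries. The co-treated libraries were tightly grouped and all lay below the control libraries. The means were 396 ± 3.93 CPM in co-treated cells and 448 ± 11.1 CPM in control cells (SD, n = 3 each). Its log2 fold change was -0.18 ± 0.04 (SE, edgeR adjusted p = 0.00632), a fall of 11.7% with a 95% interval of -17.0% to -6.02%. Its RefSeq window, chr1:226408094-226408343 on the minus strand of GRCh38.p14, is given with the same capitals as for XRCC6.
PARP1: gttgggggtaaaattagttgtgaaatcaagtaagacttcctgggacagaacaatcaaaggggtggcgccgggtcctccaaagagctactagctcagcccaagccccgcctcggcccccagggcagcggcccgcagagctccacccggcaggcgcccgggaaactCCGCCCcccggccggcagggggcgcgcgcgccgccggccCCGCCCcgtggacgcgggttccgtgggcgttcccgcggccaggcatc
It holds 2 GC boxes, at 86 and 47 bases before the start, and no CCAAT box.

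PRKDC, which encodes DNA-PKcs, the kinase that Ku recruits, lies at chr8:47773111-47960136 on the minus strand. Its levels were 572, 526 and 545 CPM in the co-treated libraries, against 625, 614 and 588 CPM in the control libraries. The groups did not overlap, but the highest co-treated and the lowest control library were close. The means were 548 ± 23.0 CPM in co-treated cells and 609 ± 19.2 CPM in control cells (SD, n = 3 each). The log2 fold change was -0.15 ± 0.05 (SE, edgeR adjusted p = 0.0250), a fall of 10.0% with a 95% interval of -16.1% to -3.51%. This was the least secure of the 4 falls: the call was lost without co-treated replicate 2 (log2 -0.12, adjusted p = 0.0891), co-treated replicate 3 (-0.15, 0.0807), control replicate 1 (-0.13, 0.104) or control replicate 2 (-0.15, 0.0556). It was lost with library size as the only scaling (-0.09, 0.142) and was larger, at -0.29 (edgeR adjusted p = 0.000209), once the trend of counts with transcript length was removed from each library.

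Over all genes tested, the median itself stood above 0 on the TPM scale, by 0.09 with a pseudocount of 1 and by 0.12 with a pseudocount of 0.1 (log2). On that scale with a pseudocount of 1, limma gave log2 differences of -0.07 for XRCC6, -0.07 for XRCC5, -0.02 for PRKDC and -0.05 for PARP1, none of which was called. Relative to the median of all genes on that scale the same 4 differences were -0.16, -0.16, -0.11 and -0.14. With no filter on that scale they were -0.10, -0.10, -0.05 and -0.08. These relative differences were not tested. The falls called in edgeR are falls relative to the bulk of other genes, and were not called on the TPM scale taken as it stands. XRCC6, XRCC5 and PARP1 each kept their call in the other 19 of 22 alternative fits, all 6 that left out a library included.

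**Figure D3:**
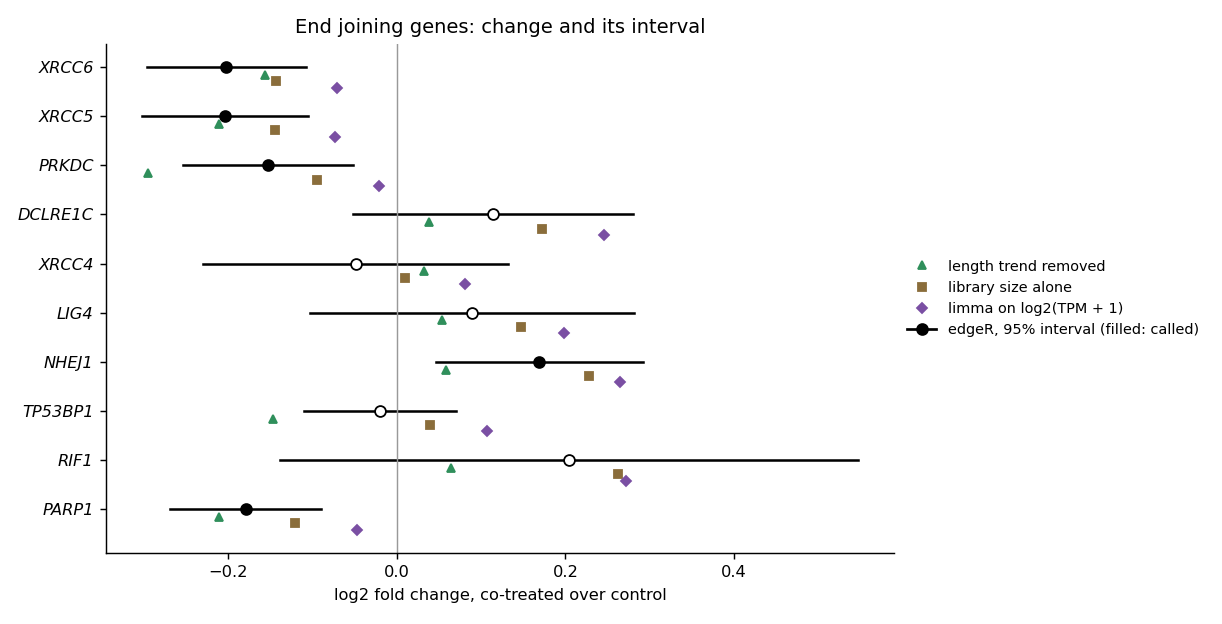
Log2 fold change, co-treated over control, of each end joining gene in edgeR with its 95% interval (circles, filled where called), beside the values with library size alone, with limma on log2(TPM + 1) and with the length trend removed (coloured symbols). XRCC6, XRCC5, PRKDC and PARP1 lie left of 0 under each of these settings, whereas TP53BP1 and XRCC4 lie on either side of it.

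DCLRE1C, which encodes Artemis, the nuclease that the kinase activates to open hairpins and trim overhangs, lies at chr10:14897359-14954432 on the minus strand. It had 19.4, 20.5 and 18.0 CPM in the co-treated libraries, against 19.5, 17.1 and 16.9 CPM in the control libraries. Control replicate 1 lay within the co-treated range, so the groups overlapped. Its log2 fold change was 0.11 ± 0.08 (SE, edgeR adjusted p = 0.276), with a 95% interval of -0.05 to 0.28. As a percentage the interval runs from -3.55% to 21.4%. SUV39H2 and MEIG1 overlap DCLRE1C on the plus strand and reach 23.9 TPM, and strandedness is not given, so reads from the overlap cannot be assigned with certainty.

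Of the 3 genes of the ligation step, only NHEJ1 was called, a statement about each gene's own test and not about a difference between them. XRCC4, the scaffold of the ligase, lies at chr5:83077409-83370333 on the plus strand. It had 16.4, 13.5 and 15.1 CPM in the co-treated libraries, against 16.6, 14.97 and 15.02 CPM in the control libraries. The groups overlapped, with replicate 1 the highest of each. The log2 fold change was -0.05 ± 0.08 (SE, edgeR adjusted p = 0.682), with a 95% interval of -0.23 to 0.13, and its sign turned with the scaling (0.01 with library size alone, 0.08 with limma on log2(TPM + 1)).

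LIG4, the ligase itself, lies at chr13:108207442-108218349 on the minus strand. It had 17.9, 15.2 and 17.2 CPM in the co-treated libraries, against 17.6, 14.9 and 14.9 CPM in the control libraries. Control replicate 1 again lay inside the co-treated range. The log2 fold change was 0.09 ± 0.09 (SE, edgeR adjusted p = 0.470), with a 95% interval of -0.10 to 0.28. As a percentage, that bounds the change of the message for the ligase at -6.89% to 21.5%.

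NHEJ1, which encodes XLF, the protein that forms filaments with XRCC4 and bridges the ends, lies at chr2:219069357-219160815 on the minus strand. It had 31.4, 29.7 and 32.3 CPM in the co-treated libraries, against 27.1, 27.8 and 28.2 CPM in the control libraries. All 3 co-treated libraries lay above all 3 control libraries. The means were 31.1 ± 1.35 CPM in co-treated cells and 27.7 ± 0.558 CPM in control cells (SD, n = 3 each), and edgeR put the log2 difference at 0.17 ± 0.06 (SE, adjusted p = 0.0368). This was a rise of 12.4%, with a 95% interval of 3.28% to 22.4%. Its main start site has the following RefSeq window, at chr2:219160816-219161065 on the minus strand of GRCh38.p14, with GC boxes in capitals.
NHEJ1: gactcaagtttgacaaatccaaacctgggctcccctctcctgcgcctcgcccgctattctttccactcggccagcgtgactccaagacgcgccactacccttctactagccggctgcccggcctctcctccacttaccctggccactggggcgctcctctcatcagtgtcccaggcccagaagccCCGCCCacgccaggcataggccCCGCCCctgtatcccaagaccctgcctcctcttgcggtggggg
It holds 2 GC boxes and no CCAAT box.
The NHEJ1 call rested on its setting: with the length trend removed the log2 fold change was 0.06 (edgeR adjusted p = 0.490). It was also lost without co-treated replicate 1 (0.16, 0.0660) or 3 (0.14, 0.143) and without control replicate 1 (0.15, 0.110), 2 (0.17, 0.0796) or 3 (0.18, 0.0603), although the size of the change was near the same in each. NHEJ1 kept its call in 13 of 22 alternative fits, limma on log2(TPM + 1) (0.27) and on log2(TPM + 0.1) (0.29) included, and its sign in all 22.

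Ratios between the partners of a step were compared within libraries, 6 in all. NHEJ1 over XRCC4 in TPM was 0.388, 0.454 and 0.440 in the co-treated libraries, against 0.336, 0.387 and 0.381 in the control libraries. The highest control library all but met the lowest co-treated one. The log2 difference was 0.21 (exact two-sided permutation test, p = 0.1, adjusted p = 0.3 over the 6 ratios). A ratio does not cancel a trend with length, and these genes differ in mean transcript length weighted by counts (8025 bases for NHEJ1, 1664 for XRCC4). With the length trend removed from the counts, NHEJ1 changed by 0.06 and XRCC4 by 0.03 in log2. The part of length in the difference between the ratios was not tested. DCLRE1C over PRKDC, the nuclease over its kinase, was 0.0894, 0.0988 and 0.0792 in the co-treated libraries, against 0.0754, 0.0690 and 0.0722 in the control libraries. Here too the groups did not overlap, and the log2 difference of 0.30 had the smallest p the design allows (exact permutation test, p = 0.1, adjusted p = 0.3). With the length trend removed from the counts, DCLRE1C changed by 0.04 and PRKDC by -0.29 in log2. PRKDC over XRCC5 differed by 0.05, XRCC4 over LIG4 by -0.14 and TP53BP1 over RIF1 by -0.17 in log2, with exact permutation p-values of 0.3, 0.2 and 0.5. No ratio passed the threshold after adjustment, which 3 libraries a side could not reach.

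TP53BP1, which encodes the chromatin reader that protects ends from resection, lies at chr15:43403061-43510640 on the minus strand. It had 109.8, 108.7 and 108 CPM in the co-treated libraries, against 113, 108 and 110.5 CPM in the control libraries. The groups overlapped and all 6 libraries lay close together. The log2 fold change was -0.02 ± 0.04 (SE, edgeR adjusted p = 0.745), and its 95% interval of -0.11 to 0.07 (-7.33% to 5.01%) is narrow. The direction depended on the setting: it was 0.04 with library size alone and 0.11 with limma on log2(TPM + 1), and TP53BP1 was called lower with the length trend removed (-0.15, edgeR adjusted p = 0.0217). TUBGCP4, at up to 14.3 TPM, overlaps the downstream end of TP53BP1 on the plus strand, so reads there cannot be told apart.

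RIF1, the effector that TP53BP1 recruits, lies at chr2:151409902-151534200 on the plus strand. It had 195.6, 155 and 136 CPM in the co-treated libraries, against 179, 130.02 and 114 CPM in the control libraries. Replicate 1 was the highest library of each group, and the groups overlapped. Libraries of the same group were far apart, and its log2 difference of 0.20 ± 0.16 (SE, adjusted p = 0.345 in edgeR) had a 95% interval of -0.14 to 0.55. Without control replicate 1 the log2 fold change was 0.41 and the gene was called higher (edgeR adjusted p = 0.0400). Without co-treated replicate 1 it was 0.05, without control replicate 3 it was 0.07 and with the length trend removed it was 0.06, none of them called. With a block for the replicate number it was 0.21 and RIF1 was called higher (edgeR adjusted p = 0.00179). Whether the numbers pair the samples is not settled. The mean transcript length, weighted by counts, was longest of the 10 for RIF1, at 13467 bases, with PRKDC close at 13458 bases. It was shortest for XRCC4, at 1664 bases. Removing the length and GC trends together took the log2 fold change of RIF1 to -0.02.

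Transcripts of the 10 genes were then compared, to see whether a steady gene level hid a change in its forms. The deposited table lists 87 transcripts for them, of which 56 passed the filter and 0 of these were called with edgeR, where 1 of 65252 transcripts (0.00153%) was called in the whole table. At an unadjusted p of 0.05, 6 of the 56 passed, where 8.56% of all transcripts tested did. In the test of transcript usage, with diffSplice of limma, 0 of 8 genes with more than 1 tested transcript were called, against 2.18% of genes in the whole table, and the smallest gene-level adjusted p was 0.437, for DCLRE1C. Of the 54 transcripts in that test, 0 were called, against 0.573% of all transcripts in it, and 3 had an unadjusted p under 0.05, where 8.84% of all transcripts in it did. XRCC5 and PARP1 have only 1 listed transcript, so their falls are those of NM_021141 and NM_001618. With the same counts as their genes, these transcripts were not called in the transcript fit (edgeR adjusted p = 0.249 and 0.205). That fit thus missed differences that the gene fit called, and its lack of calls does not show that the forms were unchanged. For PRKDC a single transcript, NM_006904, held 98.4% to 99.0% of the gene's counts in co-treated libraries and 99.0% to 99.1% in control libraries. For XRCC6 a single transcript, NM_001469, held 94.1% to 97.4% in co-treated libraries and 94.4% to 97.8% in control libraries. The break sensors were thus measured almost wholly through 1 transcript each.

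The low genes were spread over several forms, whose shares varied among replicates. The NHEJ1 form NM_024782 held 56.2%, 73.6% and 39.99% in the co-treated libraries, against 45.2%, 55.2% and 74.1% in the control libraries. The LIG4 form NM_206937 held 34.7%, 74.7% and 63.7% in the co-treated libraries, against 27.0%, 51.6% and 23.9% in the control libraries. The XRCC4 form NM_022406 held 61.9%, 69.5% and 56.9% in the co-treated libraries, against 59.2%, 69.5% and 83.8% in the control libraries. The groups overlapped for each of these 3 forms, the largest of their genes, but not for every smaller form. The LIG4 form NM_001098268 held 0%, 0.511% and 8.29% in the co-treated libraries, against 25.1%, 11.3% and 20.1% in the control libraries (diffSplice adjusted p = 0.549). The DCLRE1C form NM_001350967 held 9.76%, 8.58% and 5.89% in the co-treated libraries, against 5.28%, 1.56% and 4.40% in the control libraries (diffSplice adjusted p = 0.851). Counts of transcripts are estimates that apportion shared reads, so the spread holds that step as well.

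Because several forms share a promoter, counts were also summed over start sites within 100 bases of each other, a comparison chosen after the data had been seen. Only 6 of the 10 genes had more than 1 start site to test, and TP53BP1 was the 1 called gene among them (diffSplice, gene-level adjusted p = 0.0387), against 1.33% of genes and 0.785% of start sites in the whole table. Its upstream start at chr15:43510640, used by the form NM_005657, held 2.02%, 4.20% and 6.70% of the gene's counts in the co-treated libraries, against 13.8%, 13.9% and 24.1% in the control libraries. This start holds only that 1 form, so its counts are those of NM_005657. That form was not called in the transcript tests (diffSplice adjusted p = 0.621, edgeR adjusted p = 0.323), and the start itself was at the threshold (diffSplice adjusted p = 0.04996). The co-treated shares lay wholly below the control shares, with means of 4.31% ± 2.34 in co-treated cells and 17.3% ± 5.92 in control cells (SD, n = 3 each). These shares rest on 121, 236 and 533 estimated counts in the co-treated libraries and on 864, 1074 and 1861 in the control libraries. The downstream start at chr15:43493156 held the remainder, so most of the gene's estimated counts belonged to it in both groups.

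The 250 bases before the upstream start of TP53BP1, at chr15:43510641-43510890 on the minus strand of GRCh38.p14, are shown because this start carried the difference, again with GC and CCAAT boxes in capitals.
TP53BP1: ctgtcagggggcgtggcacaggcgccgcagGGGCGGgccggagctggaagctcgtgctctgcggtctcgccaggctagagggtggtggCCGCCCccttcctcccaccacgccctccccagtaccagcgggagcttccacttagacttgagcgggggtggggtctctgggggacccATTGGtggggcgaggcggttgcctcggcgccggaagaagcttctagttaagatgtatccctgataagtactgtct
It holds 2 GC boxes and 1 CCAAT box, 75 bases before the start. The log2 difference in usage was -2.28, and the call did not withstand the loss of any 1 library: the adjusted p was 0.110, 0.118 and 0.0880 without co-treated replicates 1, 2 and 3, and 0.0593, 0.0610 and 0.0548 without control replicates 1, 2 and 3, with log2 differences between -2.77 and -1.82. It was also lost with diffSpliceDGE of edgeR (-1.39, adjusted p = 0.276).

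The other 5 genes tested were not called. The upstream start of NHEJ1 held 100%, 94.6% and 97.1% in the co-treated libraries, against 78.6%, 87.6% and 97.9% in the control libraries (diffSplice, gene-level adjusted p = 0.407). The upstream start of LIG4 held 30.0%, 16.7% and 11.8% in the co-treated libraries, against 26.2%, 23.9% and 46.7% in the control libraries (adjusted p = 0.4997). The upstream start of DCLRE1C held 40.1%, 13.1% and 39.2% in the co-treated libraries, against 28.6%, 23.4% and 13.4% in the control libraries (adjusted p = 0.567). In all 3 genes the groups overlapped.

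**Figure D4:**
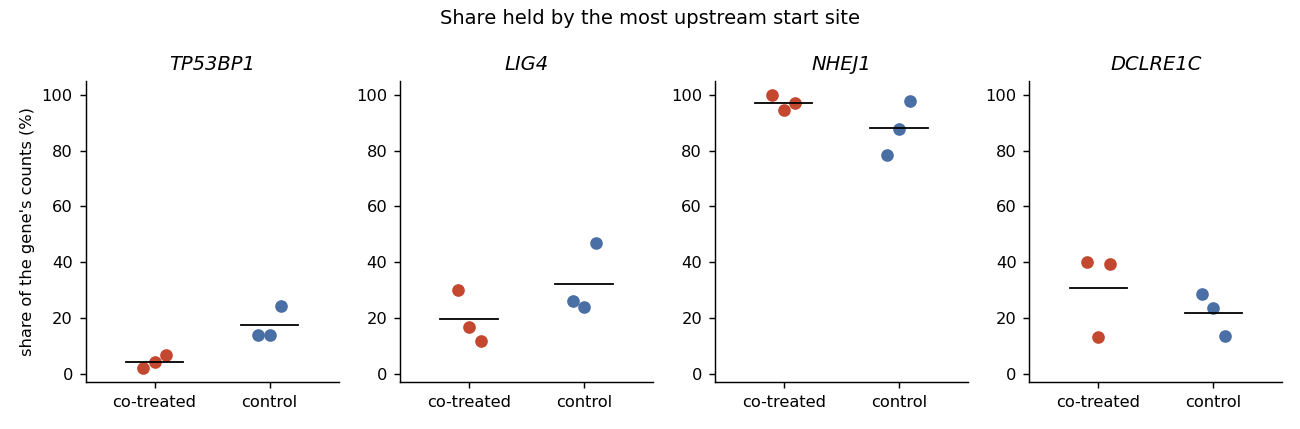
Share of a gene's estimated counts (percent) held by its most upstream start site in 4 end joining genes; points are single libraries, 3 co-treated at left and 3 control at right, and lines are group means. The groups stand apart for TP53BP1, with means of 4.31% in co-treated and 17.3% in control cells, and overlap for LIG4, NHEJ1 and DCLRE1C.

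Windows before the start sites were available in RefSeq for 8 of the 10 genes, 14 windows in all. The GC box GGGCGG, searched on both strands, was in 11 of the 14 windows and in at least 1 window of each of the 8 genes, while 42.6% of 35116 windows of all genes hold it. CCAAT was in 7 windows of 5 genes, where 32% of all windows hold it. The ETS core CCGGAAG was in 5 windows of 3 genes, where 8.52% of all windows hold it. The E-box CACGTG was in 0 of the 14, where 6.34% of all windows hold it. Some windows of LIG4 overlap one another, so the same GC box or ETS core is counted there more than once. No window was available for XRCC5 and PRKDC, and whether any of these boxes bears on expression was not tested.

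Beyond the 10 genes, 39 further genes of the pathway and its rivals were read from 3 lists. Of the 38 tested, 8 were called higher (16.6% of all genes were), 7 lower (17.1% of all genes) and 23 neither, with a median log2 fold change of 0.0119. DNTT, the template-free polymerase of lymphocytes, was not tested because it was listed at 0 in all 6 libraries. Movement was thus not one-way in any list: end processing and accessory factors had 3 called higher and 1 lower of 11, break signalling and shieldin had 2 and 3 of 16, and alternative end joining and resection had 3 and 3 of 11.

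APLF, a histone chaperone that binds Ku and stabilizes the ligase complex, rose. It had 5.40, 3.70 and 5.24 CPM in the co-treated libraries, against 2.83, 2.81 and 3.18 CPM in the control libraries, and the groups did not overlap (log2 0.70 ± 0.15 SE, edgeR adjusted p = 0.00406). TDP1, which removes stalled topoisomerase and other adducts from ends, fell, with 36.1, 33.8 and 35.7 CPM in the co-treated libraries, against 43.8, 44.5 and 44.5 CPM in the control libraries (log2 -0.33 ± 0.05 SE, edgeR adjusted p = 0.000627). The helicase genes ERCC6L2 and WRN rose by 0.25 and 0.21 in log2 (edgeR adjusted p = 0.0143 and 0.0211). Those 2 calls were lost with the length trend removed (0.13, 0.0897 for ERCC6L2 and 0.11, 0.123 for WRN). Both were lost without control replicate 3 (0.22, 0.0510 for ERCC6L2 and 0.17, 0.0731 for WRN), and WRN also without co-treated replicate 1 (0.17, 0.0600), co-treated replicate 2 (0.19, 0.0725) or control replicate 2 (0.21, 0.0551).

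In break signalling, TRIP13, the ATPase that takes shieldin apart by remodelling its MAD2L2 subunit, fell. It had 52.1, 49.4 and 54.0 CPM in the co-treated libraries, against 65.1, 67.2 and 67.6 CPM in the control libraries, without overlap (log2 -0.36 ± 0.05 SE, edgeR adjusted p = 0.000340). NUDT16L1, an inhibitor of the binding of TP53BP1 to chromatin, fell by 0.37 and KAT5, an acetyltransferase that activates ATM, by 0.20 in log2 (edgeR adjusted p = 0.00511 and 0.0124). RAD50, of the complex that tethers ends, and the kinase gene ATM rose by 0.37 and 0.26 in log2 (edgeR adjusted p = 0.0312 and 0.0243), though for RAD50 the groups overlapped. RAD50 was no longer called without co-treated replicate 1 (0.23, 0.107), control replicate 2 (0.33, 0.111) or control replicate 3 (0.29, 0.113), nor ATM without co-treated replicate 1 (0.18, 0.0820), co-treated replicate 2 (0.26, 0.0605) or control replicate 3 (0.19, 0.0885). With the length trend removed, RAD50 (0.26, 0.0621) and ATM (0.12, 0.117) were not called, and with limma on log2(TPM + 1) KAT5 was not (-0.12, 0.162). NUDT16L1 lost its call in 1 of 22 alternative fits, limma on log2(TPM + 1) with no filter (-0.46, 0.0633). The shieldin genes SHLD1, SHLD2, SHLD3 and MAD2L2 were not called.

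Alternative end joining joins resected ends through short stretches of homology, and its polymerase and its ligase moved in opposite directions. POLQ, its polymerase, rose, with 49.4, 43.6 and 44.8 CPM in the co-treated libraries, against 34.8, 34.6 and 34.9 CPM in the control libraries (log2 0.40 ± 0.06 SE, edgeR adjusted p = 0.000447). LIG3, the ligase of that route, fell, with 36.8, 38.9 and 39.4 CPM in the co-treated libraries, against 46.3, 50.6 and 51.4 CPM in the control libraries (log2 -0.37 ± 0.06 SE, edgeR adjusted p = 0.000709). No co-treated library overlapped a control library for either gene. XRCC1, the partner of LIG3, fell by 0.20 in log2 (edgeR adjusted p = 0.0489), and FEN1, a flap nuclease, fell by 0.15 in log2 (0.0226). BRCA1, which favours resection and opposes the shielding of ends by TP53BP1, and the resection nuclease EXO1 rose by 0.26 and 0.18 in log2 (edgeR adjusted p = 0.00259 and 0.0168).

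Not all of these calls were equally firm. With library size alone XRCC1 (-0.14, 0.134) and FEN1 (-0.09, 0.112) were not called, nor were they with the length trend removed (-0.15, 0.117 for XRCC1 and -0.10, 0.0769 for FEN1). LIG3 was not called with limma on log2(TPM + 1) (-0.21, 0.0655), nor were XRCC1 (-0.07, 0.464) and FEN1 (-0.02, 0.675). XRCC1 was lost without co-treated replicate 2 or 3 (adjusted p = 0.133 and 0.114) and without control replicate 1 or 3 (0.0921 and 0.198), FEN1 without co-treated replicate 1 or 3 (0.0520 and 0.0651) and without control replicate 3 (0.0907), and EXO1 without co-treated replicate 1 (0.0524) or control replicate 2 or 3 (0.0507 and 0.0563). Of the 15 further genes called, APLF, POLQ, BRCA1, TDP1 and TRIP13 kept their call in all 22 alternative fits.

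**Figure D5:**
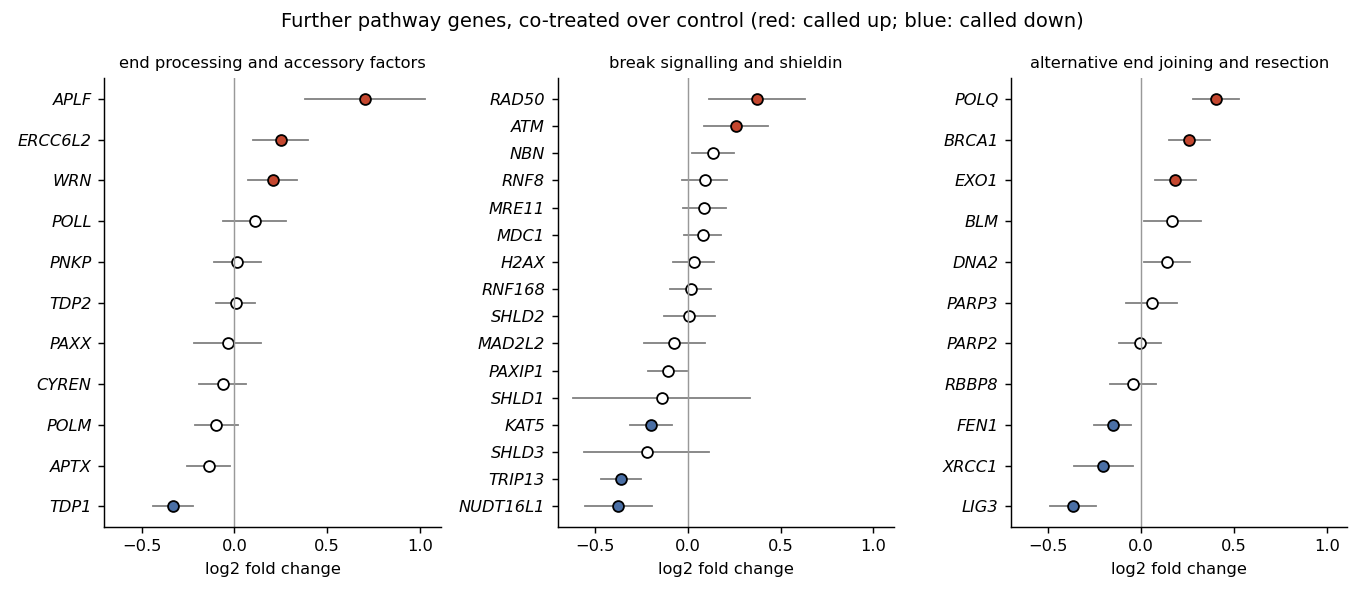
Log2 fold change, co-treated over control, of the 38 tested genes of the 3 further lists in edgeR (circles, red called higher, blue called lower, white not called) with 95% intervals (lines). APLF and POLQ stand furthest to the right in their lists and TDP1, NUDT16L1 and LIG3 furthest to the left.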

How the data were processed

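RNA sequencing of 3 co-treated and 3 control samples was analysed, grouped by the sample titles. Trimmomatic 0.38, HISAT2 2.1.0, SAMtools 1.9 and StringTie 2.1.3b and the build GRCh38 are named, without roles, per the submitters' processing notes. The authors deposited estimated counts, FPKM and TPM for genes and for transcripts. The estimated counts are whole numbers in the files and were used for the tests, TPM for levels, ratios and an alternative test, and FPKM not at all. Each gene's count equalled the sum of its transcripts. Column prefixes were read as control (Con) and as melatonin plus oTR (Mo), which the labels do not spell out.

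Genes were filtered with filterByExpr (minimum count 10) and tested with edgeR 4.0.16 in R 4.3.3 (quasi-likelihood, relative log expression factors, Benjamini-Hochberg over all 16557 genes, threshold 0.05), co-treated over control. CPM uses the same factors. limma 3.58.1 tested usage. Length and GC trends were removed as lowess offsets per library. DESeq2 1.42.0 was an alternative. Tests were tried on simulated data. Named genes are the 10 members and, per list, up to 3 called rises and 3 called falls. Members and lists were chosen with earlier results of these data known. Pseudogenes of XRCC6 held at most 0.553 TPM, and those of PARP1 at most 0.0921 TPM. Libraries of the same group differed by more than sampling noise, with a chi-square of 11.6 to 19.0 for each degree of freedom, so none was a copy of another. This does not show that the samples were separate cultures.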

Additional observations from a re-analysis of the deposited data

How the results depend on the processing

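The sources used here give no strand, RNA selection or kit. Counts are estimates, and the error of apportioning shared reads was not measured. The log2 fold changes of the 10 end joining genes and of 15 further genes were recomputed under 22 alternatives, 550 values in all. Of these, 443 kept their direction and side of the threshold, 87 lost the call, 5 gained one and 15 turned sign. Where no cause is named, the cause was not tested.

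The 2743 genes called higher became 4516 with limma on log2(TPM + 1) and 4490 on log2(TPM + 0.1), and the 2835 called lower became 1339, 1338 and, on log2(TPM + 1) with no filter, 968. On these 3 settings 0 of the 10 genes were called lower, in place of 4. The 1 called higher became 0 with no filter, 0 with the length trend removed, 0 with length and GC trends removed, and 0 with the replicate block and the length trend removed, a fit chosen after seeing the data. Further genes called higher, 8 in the report, numbered 13 with library size alone, 13 and 14 on log2(TPM + 1) and log2(TPM + 0.1), and 4 with the length trend removed, and those called lower, 7 in the report, numbered 4, 3, 3 and, with no filter on the TPM scale, 2. Genes called in usage, 217, numbered 361 at a minimum count of 3, 94 with diffSpliceDGE and 76 by start site, which called 1 of the 6 end joining genes it could test, in place of 0 of 8.

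Values that turned sign, none of them called, were for XRCC4 0.0096 with library size alone, 0.0804 on log2(TPM + 1) with or without the filter, 0.0838 on log2(TPM + 0.1), 0.0328 with the length trend removed and 0.0284 with the block and length trend, and without each library in turn they ran from -0.118 to 0.0215, the second without co-treated replicate 2. For TP53BP1 they were 0.0391 with library size alone and 0.11 on each TPM setting. They were -0.0421 for LIG4 with the GC trend removed and -0.0443 with both trends removed, and with both trends removed -0.0201 for RIF1 and -0.0037 for DCLRE1C. GC content was found for 87.8% of tested genes, and those fits ran on 14532 genes.

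Same-numbered libraries did not deviate together over all genes (r = 0.0691, 0.000448 and -0.0357), which does not settle whether the numbers pair the samples. A replicate block raised the genes called higher from 2743 to 3177 and those called lower from 2835 to 3190. With the replicate block, 2 of the 10 genes were called higher, RIF1 (0.21, edgeR adjusted p = 0.00179) beside NHEJ1, and 0 transcripts were called in place of 1.

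Leaving out each library in turn gave 2065 to 2357 genes called higher and 2158 to 2469 lower, 0 to 1 of the 10 genes higher and 3 to 4 lower, 3 to 9 further genes higher and 5 to 8 lower, 158 to 255 genes in usage with 0 of the 10 among them, and 0 to 1 transcripts. The log2 differences of ratios ranged from 0.22 to 0.38 for DCLRE1C over PRKDC, 0.15 to 0.28 for NHEJ1 over XRCC4, 0.03 to 0.07 for PRKDC over XRCC5, -0.39 to -0.01 for TP53BP1 over RIF1, -0.18 to -0.10 for XRCC4 over LIG4 and -0.0138 to 0.0123 for XRCC6 over XRCC5, whose sign turned to -0.0081 without co-treated replicate 2 and -0.0138 without control replicate 2.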
